A study of Mus musculus with 4 samples.

Results

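The genes described here are 43 genes whose products copy DNA in S phase, chosen by name as the core of the replication machinery out of 23282 gene rows. They comprise 10 genes of origin licensing, 7 of helicase activation, 5 of the sliding clamp and its loader, 8 of the polymerases and primase, 4 of single-strand binding and lagging-strand joining, 5 of nucleotide supply and 4 of chromatin copying. Every one of them had 1 row in the data, and all 43 passed the filter on low values, a mean of at least 4 normalized read counts across the libraries. Of all rows, 15164 passed it.

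Lung RNA came from male CDF1 mice, a cross of inbred strains, in 4 groups that combined high-intensity running, E, with tumor, T. Mice with neither formed the normal control group, E(-)T(-). Normal exercise mice, E(+)T(-), ran on a motorized treadmill. Cancer control mice, E(-)T(+), did not run and were given cells of the mouse colorectal carcinoma line CT26 by tail vein injection. Cancer exercise mice, E(+)T(+), had both. The labels give postnatal day 28 as the age and 10 mice in each group. The methods give a corresponding age for the purchase of the mice, so the age at sampling may have been later. The study describes its muscle samples as taken from a representative mouse of each group and its lung analysis as similar, and does not state for the lung itself whether a library held RNA of 1 mouse. CT26 cells given by this route lodge in the lung, so that a tumor-bearing lung holds host and carcinoma cells together. The study asked how exercise and the presence of cancer change gene expression in the organs of these mice. There was 1 library per group, no difference given here has a replicate check, and no test was run. The intervals are 95% exact intervals of the read ratio and cover counting error only.

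DNA replication starts when the origin recognition complex, CDC6 and CDT1 load the MCM2 to MCM7 helicase onto origins in G1. Kinases, MCM10, CDC45 and the GINS complex then turn the loaded helicase on in S phase, and polymerases held by the PCNA clamp copy the strands. Most of these genes are transcribed under E2F control as cells leave quiescence, and cells that do not divide hold little of their mRNA. In healthy adult lung few cells divide, whereas a growing carcinoma line carries the program in a large share of its cells. In bulk RNA, a smaller number of dividing cells and less mRNA in each of them cannot be told apart.

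Depth ran from 9354510 to 13367955 assigned reads, and 3 reads corresponded to between 0.224 and 0.321 CPM. The libraries differed widely in their cell content. Markers of CT26 and carcinoma cells comprised 13 genes, of which 11 passed the filter, and their summed normalized read count was 6728 in normal control, 7512 in normal exercise, 19362 in cancer control and 12658 in cancer exercise. Cdx2 and Lgals4 were at 0 in every library, and the keratins Krt7, Krt8, Krt18 and Krt19 and Epcam, which lung epithelium also expresses, were lowest in cancer control. Krt20, Etv4, Osr2 and Crabp1 were taken into the list from earlier results of these libraries, so their pattern is no independent sign of carcinoma cells. They were at 0 reads in the normal control library. In normal exercise, which is labelled free of tumor, these 4 genes had between 1.13% and 1.47% of their cancer control level, and in cancer exercise between 3.89% and 18.84%. Cdh17, also at 0 reads in normal control, was outside both ranges at 9.70% and 31.8%, on 2, 17 and 5 reads in normal exercise, cancer control and cancer exercise. Hemoglobin genes held 14.33%, 14.17%, 1.43% and 31.43% of the reads in the same order. Erythroid genes, summed, were at 1034453, 1030742, 96305 and 3052962. Most of this sum was Hba-a1, at 909679.2, 904022.0, 84460.1 and 2669243.4, so it largely repeats the hemoglobin share. Genes of neutrophils and their precursors summed to 4215, 12501, 12280 and 212490. S100a8 (90334.2) and S100a9 (88597.8) made up most of the last value. Of this list, Ltf alone was lower in cancer exercise than in cancer control, at 133.3, 112.9, 1709.3 and 647.5. Markers of alveolar epithelium summed to 234702, 283613, 35886 and 191290, and those of lung endothelium to 31601, 33919, 4383 and 30583, so that the defining genes of lung were present in all 4 libraries and lowest in cancer control. T cell markers summed to 787.7, 725.0, 133.2 and 619.7, and B cell markers to 1181, 1082, 35.7 and 350.2. Erythroid and neutrophil precursors divide as well, and the part of each cell type in the results below was not tested.

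The replication genes were highest in the cancer control lung. In the order normal control, normal exercise, cancer control, cancer exercise, the 43 genes summed to 5432, 5222, 23330 and 9664 normalized read counts. The median gene was at 84.0, 79.8, 336.3 and 156.7. The sum was 4.29 times as high in cancer control as in normal control, a log2 ratio of 2.10 (interval 2.06 to 2.14). In cancer exercise it was 0.41 times that of cancer control, a log2 ratio of -1.27 (-1.31 to -1.24), and still 1.85 times that of normal exercise. Of the 43 genes, 42 had their highest value in cancer control, and the exception was Gins4, which was highest in normal control. All 43 were lower in cancer exercise than in cancer control, beside 7536 of the 15164 genes past the filter. For 36 of them the cancer exercise value lay between the normal control and the cancer control, and for the other 7 it lay below the normal control. No share of all genes was computed for these positions or for the highest library, so those counts have no background. As a share of all assigned reads, the 43 genes made up 0.0491% of normal control (0.0479 to 0.0504), 0.0445% of normal exercise (0.0433 to 0.0457), 0.2277% of cancer control (0.2246 to 0.2307) and 0.0618% of cancer exercise (0.0605 to 0.0632). This share depends on the rest of the reads, and hemoglobin genes held 1.43% of them in cancer control and 31.43% in cancer exercise.

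**Figure D1:**
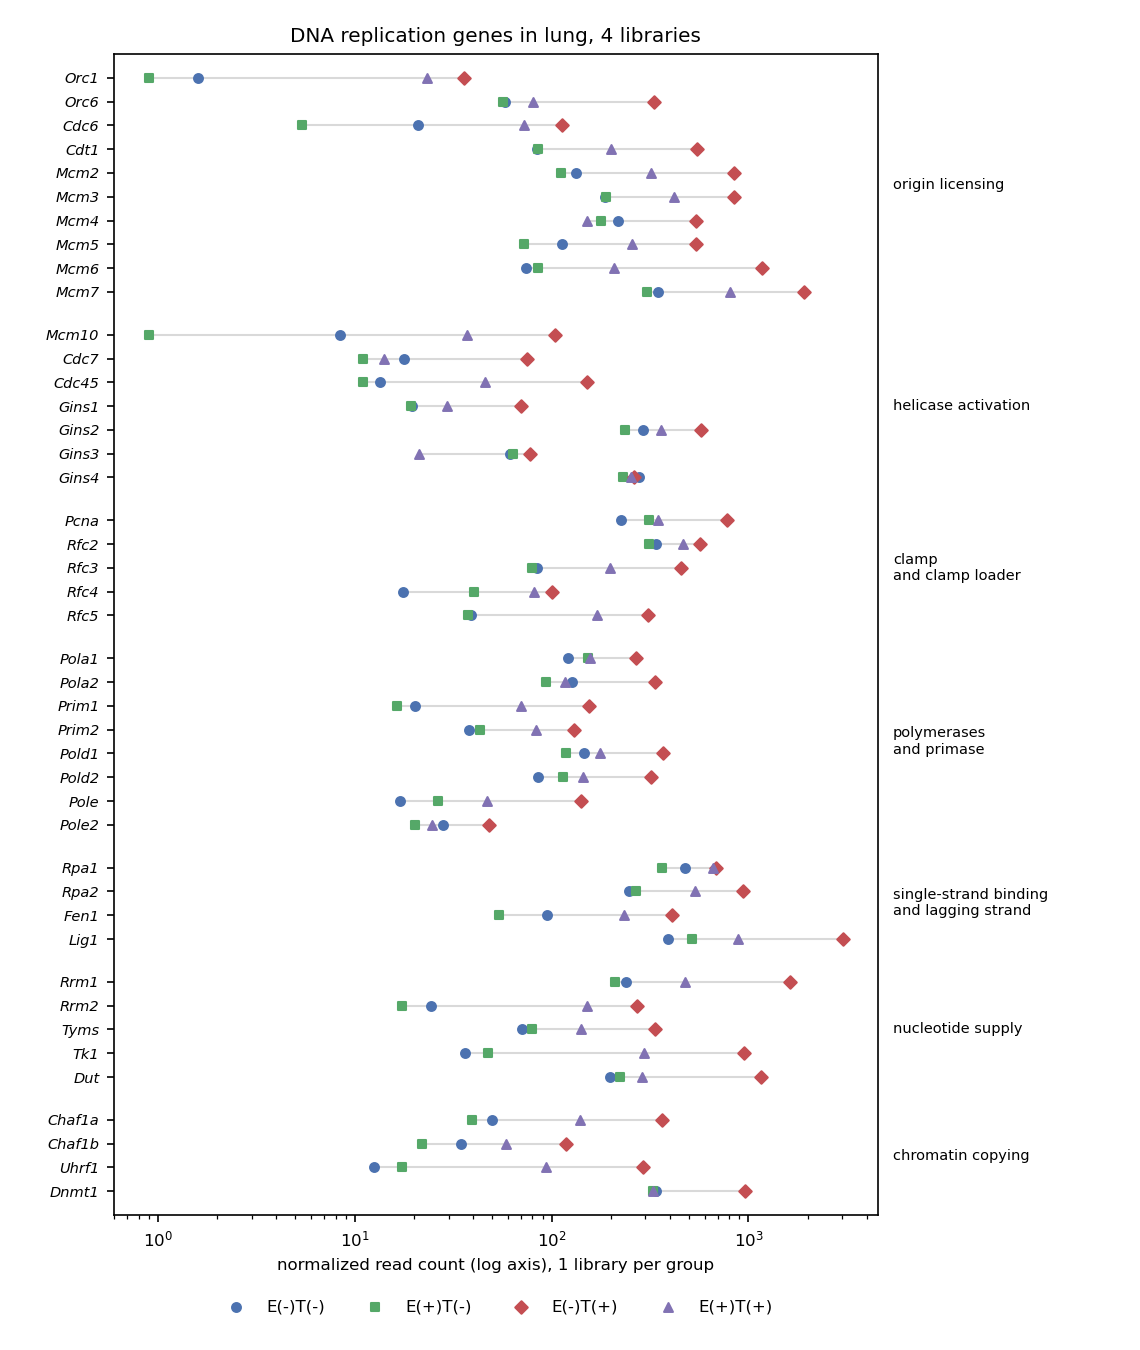
Normalized read count (log axis) of the 43 DNA replication genes, grouped by role, with 1 point for each of the 4 libraries and a grey line from the lowest to the highest library. The cancer control library lies at the right end for 42 of the 43 genes, and cancer exercise lies to its left for all 43.

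From the 4 libraries, 4 comparisons were drawn, and each library enters 2 of them, so that the comparisons are not independent. A gene was counted as higher or lower at a 2-fold or larger difference of normalized read count plus 1, which is a log2 difference of 1. The exercise effect without tumor set normal exercise against normal control. Here 1 replication gene was higher and 2 were lower, beside 5.28% and 4.70% of all genes. The tumor effect without exercise set cancer control against normal control. Here 37 were higher and 0 lower, beside 20.6% and 25.7% of all genes. The exercise effect with tumor set cancer exercise against cancer control. Here 0 were higher and 29 lower, beside 24.3% and 17.7% of all genes. The tumor effect with exercise set cancer exercise against normal exercise. Here 21 were higher and 1 lower, beside 14.9% and 13.0% of all genes. The median log2 differences of the 43 genes were -0.12, 2.25, -1.19 and 0.99 in these comparisons, and those of all 15164 genes 0.00, -0.03, 0.01 and 0.00. When library totals alone set the scale, the median of all genes moved to -0.41 in the tumor effect with exercise. There 13 replication genes were higher and 1 lower, beside 1440 and 3663 of the 15164 genes. Of the 43, 32 were above 0 in place of 40. Under the same scale the exercise effect with tumor had an overall median of -0.59. In it 39 replication genes were lower, beside 5370 of the 15164 genes in place of 2686.

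**Figure D2:**
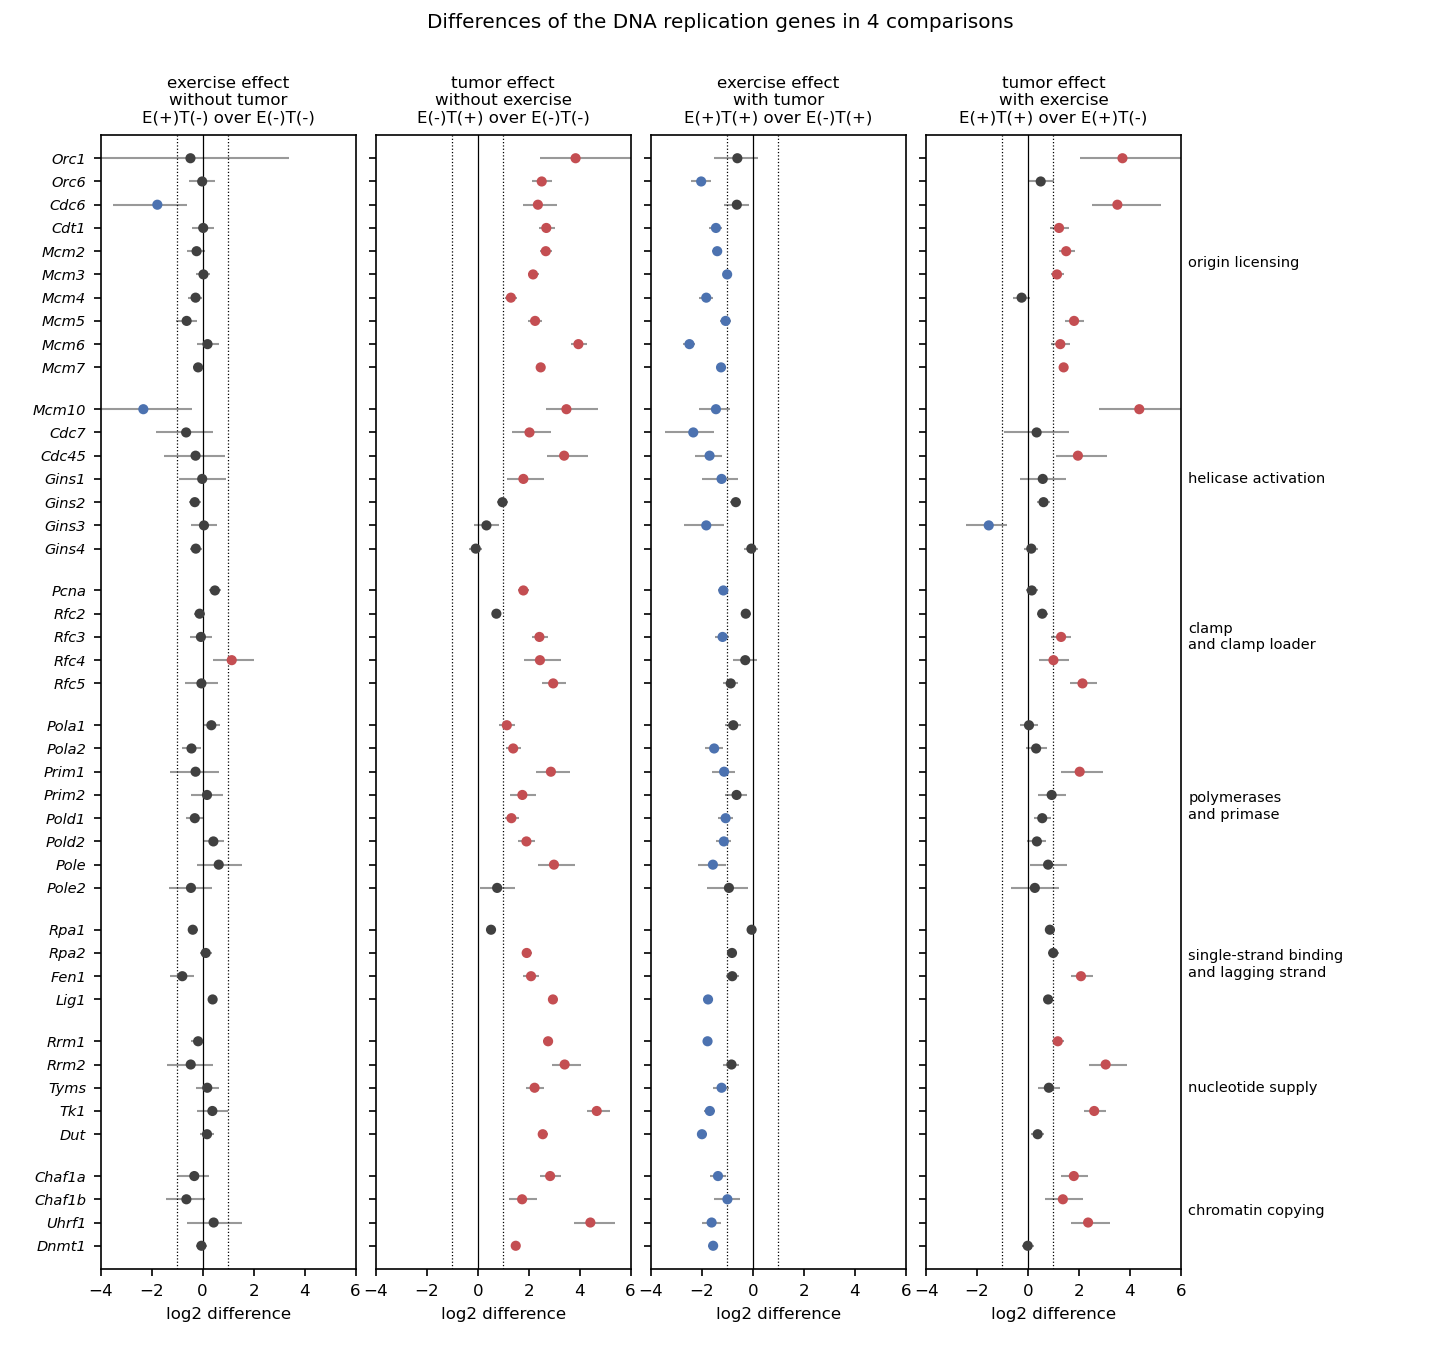
Log2 difference of each DNA replication gene in the 4 comparisons, with 95% exact counting intervals as grey lines that end at the panel edges where they are wider. Red points are 2-fold or more higher, blue points 2-fold or more lower, and dotted lines mark a log2 difference of 1 in either direction. In the tumor effect without exercise, 37 of the 43 points lie right of the dotted line, and 29 points of the exercise effect with tumor lie left of it.

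Promoters are shown here because the genes moved together and E2F factors are known to bind many of them. RefSeq start sites (build GRCm38.p6) were matched for 36 of the 43 genes. Those not matched were Mcm4, Gins1, Gins2, Gins4, Rfc2, Prim2 and Pole. Each promoter covers 300 bases, 250 before the start and 50 after it, and a gene with several starts counts as holding a word if any of its promoters does. E2F-type words of 8 letters (TTTCCCGC, TTTGGCGC, TTTCGCGC or TTTGCCGC, on either strand) were found in 15 of the 36 genes, or 41.7%, beside 2.60% of the 27025 genes in the table. Words of 7 letters, made by leaving off the leading T and therefore present wherever the longer words are, were found in 24 of the 36 (66.7%), beside 10.9% of all genes. CCAAT, on either strand, was found in 22 (61.1%), beside 41.1%, and GGGCGG in 28 (77.8%), beside 38.2%. The CHR-type words TTTGAA and TTCGAA, known from genes of mitosis, were found in 9 (25.0%), beside 21.7%. A match describes letters only, and base composition differs between these promoters and others.

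The first match of the 8-letter words in each of the 15 genes is printed with up to 15 bases on either side, 5′ to 3′ on the strand of the gene, in GRCm38.p6. Capitals mark the words. In Mcm5 and Mcm6 a word on each strand overlaps the other in a 12-letter run, and in Rfc3 they stand 2 bases apart.
Orc1 (chr4:108579412-108579449, plus strand): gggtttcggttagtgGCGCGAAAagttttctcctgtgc
Cdc6 (chr11:98907998-98908035, plus strand): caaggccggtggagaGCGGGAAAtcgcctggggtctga
Cdt1 (chr8:122568032-122568064, plus strand): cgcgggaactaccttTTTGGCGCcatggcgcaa
Mcm3 (chr1:20820271-20820308, minus strand): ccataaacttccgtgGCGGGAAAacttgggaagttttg
Mcm5 (chr8:75109341-75109378, plus strand): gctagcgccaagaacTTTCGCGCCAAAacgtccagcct
Mcm6 (chr1:128359793-128359830, minus strand): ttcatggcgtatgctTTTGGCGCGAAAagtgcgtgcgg
Mcm7 (chr5:138172026-138172063, minus strand): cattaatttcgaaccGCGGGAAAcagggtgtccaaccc
Gins3 (chr8:95633503-95633540, plus strand): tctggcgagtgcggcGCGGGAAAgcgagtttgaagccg
Rfc3 (chr5:151651196-151651233, minus strand): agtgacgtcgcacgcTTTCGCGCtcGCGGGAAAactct
Pola1 (chrX:93632271-93632308, minus strand): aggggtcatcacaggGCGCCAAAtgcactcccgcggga
Pold1 (chr7:44548766-44548791, minus strand): gcggcgtatcttgtgGCGGGAAAagc
Pole2 (chr12:69228158-69228195, minus strand): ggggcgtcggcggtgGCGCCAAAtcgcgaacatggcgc
Lig1 (chr7:13278837-13278874, plus strand): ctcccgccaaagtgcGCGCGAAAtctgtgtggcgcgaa
Uhrf1 (chr17:56304113-56304150, plus strand): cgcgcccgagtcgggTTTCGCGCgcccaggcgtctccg
Dnmt1 (chr9:20952820-20952857, minus strand): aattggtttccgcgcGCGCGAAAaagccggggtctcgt

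Whole promoters of 4 genes are printed because they span the range of the data. Mcm6 and Uhrf1 were among the genes with the largest tumor differences without exercise and hold the 8-letter words, in capitals. Uhrf1 has 2 promoters in the RefSeq table, and the one not printed holds none of these words. Tk1 had the largest tumor difference without exercise of the 43 and Rpa1 the smallest difference between the tumor-bearing libraries, and neither holds a capital.
Mcm6 (chr1:128359656-128359955, minus strand): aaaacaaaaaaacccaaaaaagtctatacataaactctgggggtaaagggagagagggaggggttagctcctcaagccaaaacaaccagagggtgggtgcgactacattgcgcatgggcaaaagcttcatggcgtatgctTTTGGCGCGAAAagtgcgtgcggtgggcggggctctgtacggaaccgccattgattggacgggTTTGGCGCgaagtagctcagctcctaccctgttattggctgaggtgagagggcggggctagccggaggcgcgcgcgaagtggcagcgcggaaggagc
Uhrf1 (chr17:56304063-56304362, plus strand): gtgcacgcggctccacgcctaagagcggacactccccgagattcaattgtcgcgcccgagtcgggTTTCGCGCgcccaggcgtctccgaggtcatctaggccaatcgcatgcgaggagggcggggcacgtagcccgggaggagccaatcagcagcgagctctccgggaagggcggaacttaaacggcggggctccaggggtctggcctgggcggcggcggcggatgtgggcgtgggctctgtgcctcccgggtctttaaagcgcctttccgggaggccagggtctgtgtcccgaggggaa
Tk1 (chr11:117825965-117826264, minus strand): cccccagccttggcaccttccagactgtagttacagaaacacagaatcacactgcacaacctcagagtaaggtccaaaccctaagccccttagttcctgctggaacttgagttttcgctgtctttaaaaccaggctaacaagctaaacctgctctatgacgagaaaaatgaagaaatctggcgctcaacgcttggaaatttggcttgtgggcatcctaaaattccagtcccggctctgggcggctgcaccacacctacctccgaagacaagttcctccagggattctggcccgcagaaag
Rpa1 (chr11:75348334-75348633, minus strand): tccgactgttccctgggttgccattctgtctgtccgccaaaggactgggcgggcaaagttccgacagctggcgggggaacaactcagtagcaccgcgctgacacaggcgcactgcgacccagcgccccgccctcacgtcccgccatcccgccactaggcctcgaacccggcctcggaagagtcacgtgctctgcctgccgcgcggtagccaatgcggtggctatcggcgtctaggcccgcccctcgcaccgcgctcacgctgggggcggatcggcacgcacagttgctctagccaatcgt

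**Figure D3:**
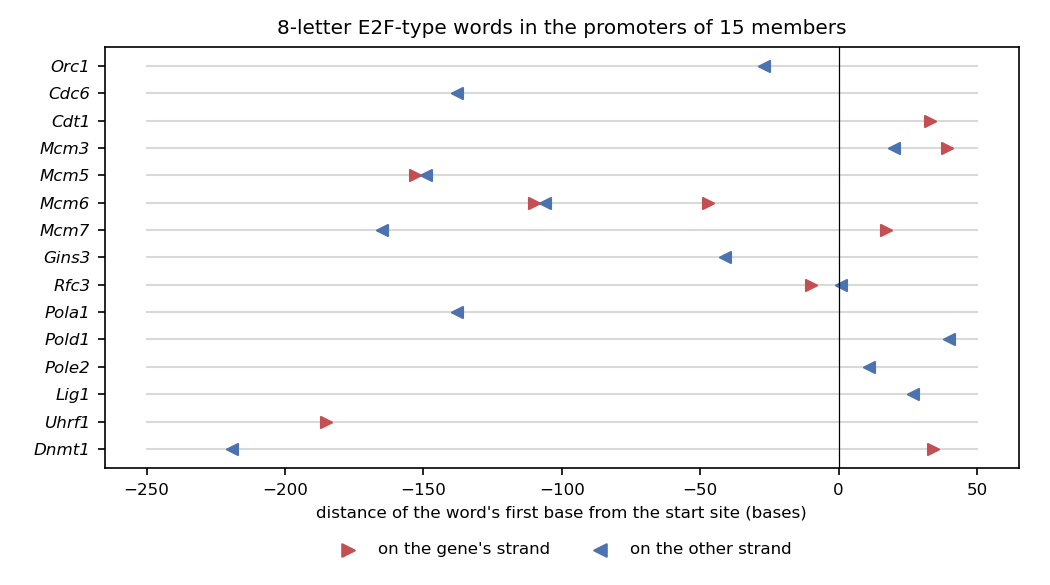
Position of each 8-letter E2F-type word relative to the RefSeq start site in the 15 replication genes that hold one, in bases. Red triangles are words on the strand of the gene and blue triangles words on the other strand. The words lie between 219 bases before and 40 bases after the start.

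Genes with and without the words had like medians. In the tumor effect without exercise, the 15 genes with an 8-letter word had a median log2 difference of 2.36 (range 0.34 to 4.42), and the 21 genes without one a median of 2.51 (0.52 to 4.67). For the exercise effect with tumor the medians were -1.19 and -1.23. These are descriptions without a test.

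Origin licensing genes were higher in the cancer control lung without exception. All 10 were 2-fold or more higher in cancer control than in normal control, with a median log2 difference of 2.49, and 8 of the 10 were 2-fold or more lower in cancer exercise than in cancer control, with a median of -1.33. For this and the other roles below, the shares of all genes in these comparisons were 20.6% higher and 17.7% lower. The genes of the MCM2 to MCM7 ring, the motor of the replicative helicase, had the highest mean normalized read counts of this group over the 4 libraries. Mcm6 was at 74.6, 85.3, 1169.6 and 207.1 normalized read counts, in the order of libraries given above, which holds for all values that follow. Its log2 difference was 3.95 (3.65 to 4.30), or 15.48-fold, in the tumor effect without exercise, and -2.49 (-2.74 to -2.27) in the exercise effect with tumor. At 17.7% of the cancer control level in cancer exercise, Mcm6 was the lowest of the 43 genes by that measure. Its promoter, printed above, holds 3 of the 8-letter words, the highest number among the 36 replication genes with a matched promoter.

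The other ring genes followed with smaller differences. Mcm2 was at 132.4, 112.0, 847.0 and 319.2, and Mcm3 at 186.8, 190.1, 847.0 and 421.0. Mcm5 was at 112.9, 72.5, 540.2 and 256.1. Mcm7 was at 345.8, 305.8, 1925.8 and 806.9. Their tumor differences without exercise were between 2.17 and 2.67 on the log2 scale, and their exercise differences with tumor between -1.01 and -1.40. Mcm4 departed from the others. It was at 218.3, 179.1, 539.1 and 150.9, a tumor difference without exercise of only 1.30 (1.08 to 1.53), and in cancer exercise it lay below both tumor-free libraries. The tumor effect with exercise was -0.25 (-0.58 to 0.08) for Mcm4, against 1.14 to 1.81 for the other 5 ring genes.

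Because the ring holds each of the 6 subunits once, the shares of its reads were also compared, which need no scaling between libraries. Mcm6 held 6.98% of the ring's reads in normal control (5.63 to 8.53), 9.04% in normal exercise (7.36 to 11.0), 19.9% in cancer control (18.9 to 21.0) and 9.58% in cancer exercise (8.27 to 11.0). Mcm4 held 20.4% (18.2 to 22.7), 19.0% (16.6 to 21.5), 9.18% (8.42 to 9.99) and 6.98% (5.86 to 8.24). The Mcm6 share was thus higher in the cancer control library alone, whereas the Mcm4 share was low in both tumor-bearing libraries. Mcm7 held 32.3%, 32.4%, 32.8% and 37.3%, the most even of the 6 between the first 3 libraries. Exons of Cops6 lie opposite the last 1000 bases of Mcm7 in GENCODE vM21 (also GRCm38), and since the use of strand in counting was not stated, part of its reads may belong to Cops6, which was at 688.3, 550.0, 1072.4 and 725.1.

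**Figure D4:**
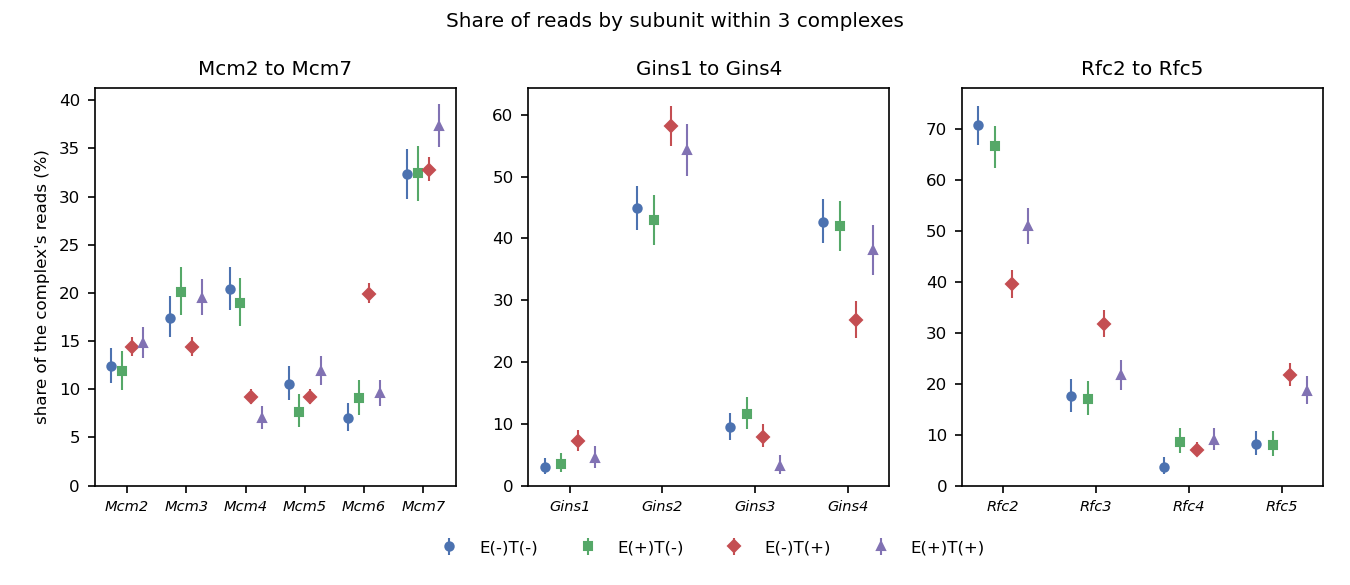
Share of reads (%) held by each subunit gene within the MCM2 to MCM7 ring, the GINS complex and the small subunits of the clamp loader, with 1 point per library and 95% exact counting intervals. Mcm6 stands at 19.9% in cancer control against 6.98% to 9.58% in the other libraries, and Rfc2 is at 70.7% in normal control and 39.5% in cancer control.

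Among the loaders of the helicase, Cdt1, which brings the ring to the origin, was at 84.0, 85.3, 546.6 and 200.0, a tumor difference without exercise of 2.69 (2.39 to 3.03) and an exercise difference with tumor of -1.45 (-1.71 to -1.20). Orc6, a subunit of the origin recognition complex, was at 57.7, 56.9, 332.8 and 80.7, and its exercise difference with tumor, -2.03 (-2.44 to -1.66), was among the largest. Cdc6 and Orc1 behaved differently from Orc6, with 64.3% and 64.7% of the cancer control level retained in cancer exercise against 24.3%. Cdc6, the loading ATPase, was at 21.1, 5.4, 112.7 and 72.4, and was 1 of the 2 genes lower in the exercise effect without tumor, at -1.78 (-3.52 to -0.63) on 25 and 6 reads. Orc1, the largest subunit of the origin complex, had 2, 1, 33 and 20 reads, so that it was close to undetected in both tumor-free libraries, and its exercise difference with tumor of -0.61 had an interval that included 0 (-1.51 to 0.22).

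Of the 7 helicase activation genes, 4 were higher in the tumor effect without exercise and 5 were lower in the exercise effect with tumor. Cdc45, which joins the ring to form the active helicase, was at 13.5, 11.0, 151.0 and 45.7, a tumor difference without exercise of 3.39 (2.72 to 4.32). Mcm10, needed to start the helicase, had 10, 1, 95 and 32 reads. Its tumor difference without exercise was 3.48 (2.67 to 4.72). It was the other gene lower in the exercise effect without tumor, at -2.33, where the single read of normal exercise gave an interval of -8.65 to -0.40. Cdc7, the kinase that triggers origin firing, was at 17.8, 11.0, 75.4 and 14.1, and its exercise difference with tumor of -2.34 (-3.45 to -1.53) placed cancer exercise at the level of the tumor-free libraries.

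GINS has 4 subunits, and their genes did not move as a unit. Gins1 was at 19.5, 19.3, 70.0 and 29.3, a tumor difference without exercise of 1.79 (1.14 to 2.60). Gins2 was at 292.3, 235.1, 571.8 and 360.0, just inside the limit at 0.97 (0.77 to 1.17). Gins4 was at 277.8, 230.5, 262.9 and 252.5, and Gins3 at 61.2, 63.4, 77.7 and 21.2. On the deposited scale Gins4 differed little over the 4 libraries. It was at -0.27 (-0.51 to -0.03) in the exercise effect without tumor, and its intervals included 0 in the tumor effect without exercise (-0.33 to 0.17), the exercise effect with tumor (-0.33 to 0.21) and the tumor effect with exercise (-0.14 to 0.40). Gins3 was low in the cancer exercise library only, at -1.83 (-2.72 to -1.12) against cancer control and -1.54 (-2.43 to -0.83) against normal exercise, and it was the 1 replication gene lower in the latter comparison. Within the complex, the Gins4 share of reads was 42.7%, 42.0%, 26.8% and 38.1%, and the Gins3 share 9.40%, 11.6%, 7.92% and 3.17%. Exons of Gse1 lie opposite the end of Gins2, and Gse1, at 468.2, 336.1, 581.9 and 458.2, may hold or share reads with it.

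The clamp and its loader were higher in the tumor effect without exercise in 4 of 5 genes, beside 20.6% of all genes. They were lower in the exercise effect with tumor in 2 of 5, beside 17.7%. In the tumor effect with exercise 3 of 5 were higher, beside 14.9%. Pcna, the sliding clamp that tethers polymerases to DNA, was at 224.2, 313.3, 778.8 and 347.3. Its tumor difference without exercise was 1.79 (1.59 to 2.01) and its exercise difference with tumor -1.16 (-1.37 to -0.97), which left cancer exercise close to normal exercise, at 0.15 (-0.08 to 0.38). Rfc3 and Rfc5, small subunits of the loader that opens the clamp, were at 84.0, 79.8, 453.5 and 197.6 and at 39.0, 37.6, 309.8 and 169.4. Rfc2, also a loader subunit, was much flatter, at 340.8, 314.2, 564.3 and 464.0, a tumor difference without exercise of 0.73 (0.54 to 0.92). Its share of the reads of the small subunits was 70.7%, 66.5%, 39.5% and 50.8%. Rfc4 was the 1 gene higher in the exercise effect without tumor, at 17.7, 40.4, 100.8 and 81.8 and a log2 difference of 1.14 (0.40 to 2.0) on 21 and 44 reads. Its neighbour Eif4a2 has exons opposite the end of Rfc4 and was at 1561.9, 1633.9, 311.3 and 587.1, so that a small part of its reads could weigh on Rfc4. Lat2 lies opposite the end of Rfc2, at 204.8, 152.5, 398.8 and 392.7, and Wsb2 opposite that of Rfc5, at 525.0, 519.9, 329.8 and 437.4.

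Polymerase and primase genes showed smaller differences than the licensing genes. With tumor and without exercise 7 of 8 were higher, with a median of 1.57, and 5 of 8 were lower in the exercise effect with tumor, with a median of -1.10. In the tumor effect with exercise only Prim1 was 2-fold or more higher, at 2.03 (1.30 to 2.93). This was 1 of 8 genes, near the 14.9% of all genes, and the median was 0.45. Pole, the catalytic subunit of the leading-strand polymerase, was at 16.9, 26.6, 141.1 and 46.8, a tumor difference without exercise of 2.99 (2.37 to 3.81), the largest of this group. Its partner Pole2 was at 28.0, 20.2, 48.1 and 24.6, at 0.76 (0.10 to 1.48), the smallest. Pold1 and Pold2, the catalytic and the second subunit of the lagging-strand polymerase, were at 147.0, 118.4, 369.2 and 175.4 and at 84.9, 113.9, 321.0 and 145.0.

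The polymerase alpha and primase genes, whose products lay the primers, varied likewise. Prim1, the catalytic primase, was at 20.3, 16.5, 154.3 and 70.2, and its partner Prim2 at 38.2, 43.1, 130.3 and 83.0. Pola1, the catalytic subunit of polymerase alpha, was at 120.6, 152.5, 267.4 and 156.7. Pola2 was at 127.4, 93.7, 336.3 and 116.9. The cancer exercise values of both Pola1 and Pola2 were within counting error of normal exercise, with intervals of -0.30 to 0.38 and -0.09 to 0.73.

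Among the genes of single-strand binding and lagging-strand joining, Lig1 and Rpa1 stood at opposite ends. Lig1, the ligase that joins Okazaki fragments, had the highest normalized read count of the 43 genes in every library but normal control, at 391.6, 514.2, 3024.6 and 889.8. Its tumor difference without exercise was 2.95 (2.81 to 3.09) and its exercise difference with tumor -1.76 (-1.88 to -1.65). Rpa1, the large subunit of the protein that coats single-stranded DNA in replication and in repair, was at 476.7, 364.6, 683.5 and 660.7. At 0.52 (0.35 to 0.69) its tumor difference without exercise was small. On the deposited scale cancer exercise held 96.7% of the cancer control level, the highest share of the 43 genes, with an interval that included 0 (-0.22 to 0.12). With library totals alone, which moved the median of all genes in this comparison to -0.59, Rpa1 would lie below that interval. Its partner Rpa2 was at 248.0, 269.0, 943.2 and 535.3, a tumor difference of 1.92 (1.73 to 2.12), and so did not follow Rpa1. Fen1, the nuclease that trims Okazaki flaps, was at 95.1, 54.1, 408.6 and 232.6. Its level in cancer exercise was 4.24-fold that of normal exercise, against 1.73-fold for Lig1, which acts in the next step.

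Without exercise, nucleotide supply genes had the largest tumor differences as a group. All 5 were higher in cancer control than in normal control, with a median of 2.76. Tk1, thymidine kinase of the salvage pathway, was at 36.4, 47.7, 954.4 and 294.7. Its tumor difference without exercise of 4.67 (4.27 to 5.18), or 25.53-fold, was the largest of the 43 genes. Rrm1 and Rrm2 encode the subunits of ribonucleotide reductase, which makes deoxynucleotides. Rrm1 was at 239.5, 211.2, 1632.8 and 474.7 and Rrm2 at 24.5, 17.4, 270.5 and 150.8. In cancer exercise, Rrm1 kept 29.1% of its cancer control level and Rrm2 55.7%, and Rrm2 was the 1 gene of the group not 2-fold lower in the exercise effect with tumor, at -0.84 (-1.16 to -0.53). Dut, which keeps uracil out of DNA, was at 197.1, 222.3, 1159.9 and 288.8, an exercise difference with tumor of -2.0 (-2.21 to -1.81). Tyms, thymidylate synthase, was at 70.4, 79.9, 334.0 and 141.5. Together, the 5 genes took 10.5% of the reads of all 43 in normal control (9.72 to 11.2), 11.1% in normal exercise, 18.7% in cancer control (18.1 to 19.2) and 14.0% in cancer exercise (13.2 to 14.7).

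Chromatin copying genes were higher in the tumor effect without exercise in 4 of 4, beside 20.6% of all genes. They were lower in the exercise effect with tumor in 4 of 4, beside 17.7%. In the tumor effect with exercise 3 of 4 were higher, beside 14.9%. Uhrf1, which recognises hemimethylated DNA behind the fork, was at 12.6, 17.4, 290.0 and 93.5, a tumor difference without exercise of 4.42 (3.76 to 5.37), second to Tk1. Dnmt1, the maintenance methyltransferase that UHRF1 recruits, was at 340.8, 328.0, 961.7 and 326.2, a tumor difference of 1.49 (1.33 to 1.67). Its cancer exercise level did not differ from normal exercise beyond counting error, at -0.01 (-0.24 to 0.22), whereas Uhrf1 was 2.36 (1.69 to 3.23) higher in that comparison. Chaf1a and Chaf1b, subunits of the factor that places histones on new DNA, were at 50, 39.4, 363.6 and 140.3 and at 34.8, 22.0, 118.2 and 58.5. Chaf1b sat at the limit in the exercise effect with tumor, at -1.0 (-1.53 to -0.52). Ubxn6 lies opposite the end of Chaf1a, at 471.4, 416.9, 644.4 and 589.2, and a noncoding gene opposite that of Fen1.

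The share of the cancer control level that remained in the cancer exercise lung had a median of 43.6% over the 43 genes and ran from 17.7% for Mcm6 to 96.7% for Rpa1. For 11 genes it was under 33%, and for 8 it was over 60%. In this range, genes of 1 complex were often far apart, as with Orc6 and Orc1, Rrm1 and Rrm2, or Gins3 and Gins4. These shares use the deposited scale. With library totals alone the median log2 difference of the 43 genes in this comparison was -1.80 in place of -1.19, so the shares would be lower. With hemoglobin genes left out of the totals it was -1.28. In the exercise effect without tumor, the 3 genes past the limit were Rfc4, Cdc6 and Mcm10, and the counting interval left out 0 for 14 of the 43 genes, 5 higher and 9 lower, beside 22.5% and 21.3% of all genes. The 5 were Pcna, Rfc4, Pola1, Pold2 and Lig1, with lower limits close to 0 for Pola1 (0.01) and Pold2 (0.03). Subtracting the marker share, 1.44% of the cancer control level as the median of Krt20, Etv4, Osr2 and Crabp1, from normal exercise left the count at 3 and moved the median log2 difference from -0.12 to -0.23.

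Other factors of the replication pathway had smaller median differences than the 43 genes. Of 48 further genes, 47 passed the filter. With tumor and without exercise 24 were higher and 3 lower, beside 20.6% and 25.7% of all genes, with a median of 1.01. When cancer exercise was set against cancer control, 2 were higher and 18 lower, beside 24.3% and 17.7%, with a median of -0.83. In the exercise effect without tumor 3 were higher and 1, Wdhd1, lower, near the 5.28% and 4.70% of all genes, and in the tumor effect with exercise 11 were higher and 0 lower, beside 14.9% and 13.0%. In this last comparison the median was 0.16, with 26 genes above 0 and 21 below, and it turned to -0.25, with 20 above and 27 below, when library totals alone set the scale. With hemoglobin genes left out of the totals it was 0.07, with 26 above and 21 below. The 4 genes of this list with the highest mean level were Top1, Ssrp1, Samhd1 and Chtf8. Top1, the swivel ahead of the fork, was at 3248.5, 4447.2, 2609.3 and 3367.8, with no difference past the limit. Ssrp1, a histone chaperone subunit, was at 1618.1, 1681.0, 3268.8 and 1806.8. Samhd1, which breaks down deoxynucleotides and is abundant in myeloid cells, went the other way, at 1644.1, 1329.7, 971.8 and 1971.8, and Chtf8 was at 1337.1, 1746.4, 891.1 and 1030.1. The 3 genes lower with tumor were Mcm9, at 22.2, 15.6, 7.7 and 11.7, Rnaseh2c, at 485.4, 435.5, 215.9 and 487.4, and Rrm2b, the p53-induced reductase subunit, at 260.9, 172.6, 112.9 and 87.8.

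Among regulators of E2F and of the passage from G1 to S, 33 genes, 16 were higher and 4 lower with tumor and without exercise, beside 20.6% and 25.7% of all genes. In the exercise effect with tumor 6 were higher and 16 lower, beside 24.3% and 17.7%. Without tumor, exercise gave 2 higher and 2 lower, close to the 5.28% and 4.70% of all genes, and the tumor effect with exercise 7 and 3, beside 14.9% and 13.0%. Ccnd1, cyclin D1, was at 4041.4, 5605.9, 16925.5 and 3235.0. It was highest in cancer control, as the replication genes were, but in cancer exercise it lay below both tumor-free libraries, with a tumor effect with exercise of -0.79 (-0.86 to -0.73). Ccnd2 was at 2808.3, 3377.1, 951.1 and 1227.8, and Ccnd3 at 1746.4, 2254.1, 996.4 and 2629.3. The D-type cyclins thus ran in different directions with tumor. Cdkn1a, the inhibitor p21, which blocks cyclin-dependent kinases and binds PCNA, was at 1809.3, 5017.4, 3749.8 and 18832.3. It was higher in all 4 comparisons, at 1.47 (1.40 to 1.54), 1.05 (0.97 to 1.13), 2.33 (2.28 to 2.38) and 1.91 (1.86 to 1.95) in the order given above.

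Among the E2F genes, E2f2 and E2f6 were past the limit against the direction of their list. E2f6 was at 200.6, 278.4, 142.5 and 125.2, with a tumor effect with exercise of -1.15 (-1.49 to -0.83). E2f2 was at 315.3, 326.9, 102.0 and 1380.5, a tumor difference without exercise of -1.62 (-1.97 to -1.30) and an exercise difference with tumor of 3.75 (3.45 to 4.08). E2f2 is known for its role in erythroid cells. The hemoglobin share, which the erythroid sum largely repeats, was likewise lowest in cancer control and highest in cancer exercise. The median log2 difference of 14 erythroid genes was -2.61 and 5.05 in these comparisons, although Gata1, Klf1 and Rhd were not lower in cancer control than in normal control, on 1 to 15 reads. Whether they account for E2f2 was not tested. Cdkn1c, at 1147.9, 958.4, 167.8 and 822.1, and Cdkn2a, at 33.2, 23.0, 6.6 and 26.9, were likewise lowest in cancer control. So was Cdkn2b, at 332.4, 272.8, 171.0 and 398.5, with an exercise difference with tumor of 1.22 (0.94 to 1.5). Cdk6 was past the limit in the tumor effect with exercise at -1.09, but its interval included 0 (-3.05 to 0.30).

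Genes of mitosis, which follow replication in the cycle, had larger differences than the replication genes. Of 20, 19 were higher in the tumor effect without exercise, beside 20.6% of all genes, with a median of 4.34. When cancer exercise was set against cancer control, 19 were lower, beside 17.7% of all genes, with a median of -1.98. Birc5, survivin, was at 45.8, 105.6, 2456.5 and 583.5, and Cdk1, the mitotic kinase, at 44.1, 104.6, 1691.6 and 431.3. The centromere genes Cenpf and Cenpa were at 73.0, 96.4, 1852.5 and 402.4 and at 82.3, 69.8, 1390.1 and 298.2. Kif20a was the gene not past the limit with tumor, at 0.31, and Mki67, the proliferation marker Ki-67, the gene not past it with exercise in the tumor-bearing lung, at -0.30, and both were named after their values were seen. For every 100 reads of the 43 replication genes there were 19.5 reads of the mitosis genes in normal control, 25.5 in normal exercise, 72.6 in cancer control and 52.3 in cancer exercise. The mitosis share of the combined reads was 16.3% (15.5 to 17.1), 20.3% (19.4 to 21.3), 42.1% (41.6 to 42.6) and 34.3% (33.5 to 35.2), so that the ratio differed between any pair of the libraries beyond counting error. In the exercise effect without tumor, 5 of the 20 were higher and 1, Ttk, lower, beside 5.28% and 4.70% of all genes, with a median of 0.42. That median became -0.02 once the marker share was subtracted from normal exercise. The subtraction takes the same fraction for every gene, from Krt20, Etv4, Osr2 and Crabp1, which were picked from these libraries. Where the marker reads of normal exercise came from was not tested.

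**Figure D5:**
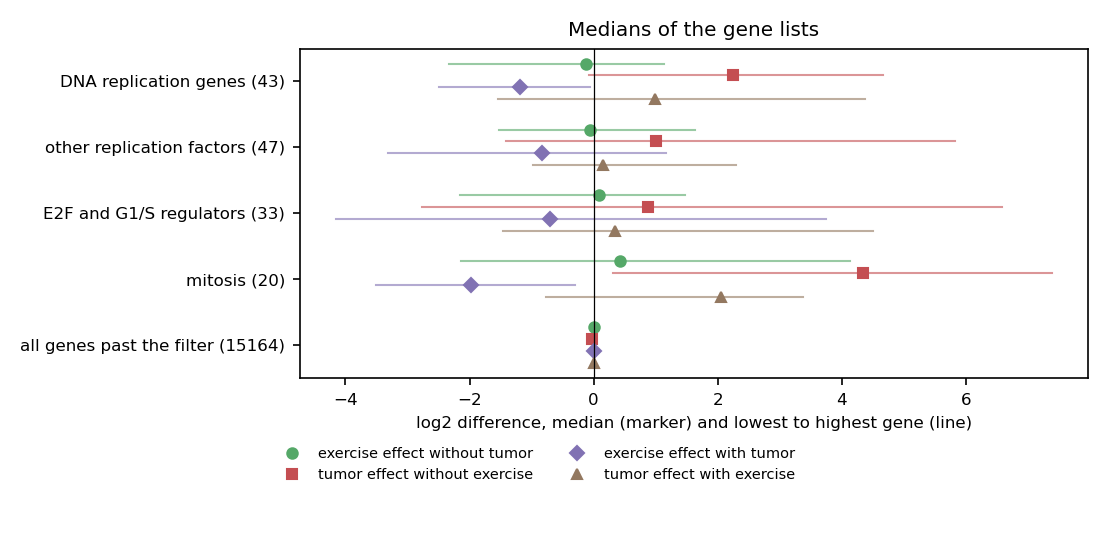
Median log2 difference (marker) and the range from lowest to highest gene (line) for the replication genes, the other replication factors, the G1 to S regulators and the mitosis genes in the 4 comparisons, with the median alone for all 15164 genes. The replication genes reach 2.25 and the mitosis genes 4.34 in the tumor effect without exercise, and -1.19 and -1.98 in the exercise effect with tumor.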

How the data were processed

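The authors sequenced lung RNA with QuantSeq 3' mRNA-Seq, an oligo-dT primed kit whose reads mark transcript ends, so gene length has little weight. Per the labels and methods, reads were aligned with Bowtie2 to mm10 and counted with bedtools, and edgeR's quantile method was used for normalization. Versions, annotation and use of strand were not given in the sources used here. The deposited values are log2(normalized read count + 1) at 3 decimals, made by the authors.

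Whole reads were recovered by inverting the negative binomial quantile adjustment (dispersion 0.372). They returned 100.00% of the values within 0.001, and 94.6% of the values were resolved to 1 read. The procedure was tested on simulated data. Totals were 13017509 reads for normal control, 12780430 for normal exercise, 9354510 for cancer control and 13367955 for cancer exercise, as assigned to genes. PCR copies without molecular identifiers make the intervals cover counting error only.

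Differences were taken between deposited log2 values and understate the change of low genes. Genes with a mean of at least 4 normalized counts were kept, and the limit was a 2-fold difference. Intervals are exact (Clopper-Pearson) for recovered reads, scaled by effective library size, and are given for read shares without scaling. With 1 library per group no test was run. All 43 genes are named by role. From other lists the 4 genes with the highest mean level were named, together with genes against the direction of their list. The members and the lists were chosen with earlier results of these data known. Promoters are from RefSeq and gene ends from GENCODE vM21. Alternatives covered the scaling, the pseudocount, the filter, the limit and a correction of normal exercise for marker reads. Python 3.11.15, numpy 2.4.6, scipy 1.17.1 and matplotlib 3.10.9 were used.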

Additional observations from a re-analysis of the deposited data

Results flagged for a closer look

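Pcna, Pola1, Pold2 and Lig1 had exercise effects of opposite sign without and with tumor, each with a counting interval that left out 0. Intervals above 0 in the exercise effect without tumor were no more frequent here than elsewhere, with 5 of the 43 genes beside 22.5% of all genes. No share of all genes with effects of opposite sign is given, so these 4 genes have no background to be set against. The difference between the effects was not tested, since there was 1 library per group. Pcna was 0.48 (0.25 to 0.72) without tumor and -1.16 (-1.37 to -0.97) with tumor on the log2 scale. Pola1 was 0.34 (0.01 to 0.67) and -0.77 (-1.09 to -0.46), and Pold2 was 0.42 (0.03 to 0.82) and -1.14 (-1.46 to -0.84). Lig1 was 0.39 (0.21 to 0.57) and -1.76 (-1.88 to -1.65). All 4 effects without tumor were inside the 2-fold limit, and the normal exercise library also held reads of the carcinoma markers. Subtracting the marker share of the cancer control level from normal exercise left them above 0, at 0.43 for Pcna, 0.30 for Pola1, 0.36 for Pold2 and 0.26 for Lig1. No interval was computed for these values. For Pola1 and Pold2 this subtraction, and library totals alone (0.25 and 0.33), lowered the value by more than the distance of the lower limit from 0, so an interval of the same width would include 0.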

How the results depend on the processing

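Without replicates, leaving out a library was not possible, and neither biological spread nor batch can be told apart from the groups. No paired analysis was possible because each group has 1 library. Library totals alone shifted the median of all genes to -0.59 (exercise effect with tumor) and -0.41 (tumor effect with exercise), and among all genes past the limit the share that was higher went from 57.8% to 31.6% and from 53.5% to 28.2%. Under those totals, 14 replication genes were past the limit in the tumor effect with exercise (22 as deposited) and 39 in the exercise effect with tumor (29). With hemoglobin genes left out of the totals, the medians of all genes were -0.08 (exercise effect with tumor) and -0.09 (tumor effect with exercise). The shares that were higher were then 54.4% and 47.4%, and the medians of the 43 genes -1.28 and 0.90. Statements that an interval included 0 in these 2 comparisons refer to the deposited scale. A 1.5-fold limit gave 8 genes in the exercise effect without tumor (3 at 2-fold). A 4-fold limit gave 1, 4 and 9 genes in the exercise effect without tumor, the exercise effect with tumor and the tumor effect with exercise. All other alternatives stayed within 1.5 times the counts given in the report, no single gene past the limit changed sign, and 61 of 1118 single values moved outside their counting interval. Depth limits Orc1, Mcm10 and Cdc6, which had 1 to 25 reads in the tumor-free libraries.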
